A study of Mus musculus with 6 samples.

Results

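Oligodendrocyte lineage and myelin genes were followed in the hippocampus of mice that had lost 2 histone demethylases in forebrain neurons. The set held 45 genes given by name, out of 48795 gene identifiers in the count table, and was divided by the stage of the lineage at which each is chiefly used: 12 precursor genes, 3 genes of committed cells, 3 transcription factor genes active throughout the lineage, and 27 genes of myelinating cells. All 45 were found in the table and all 45 had enough reads to be tested. The KO group was a Kdm1a/Kdm5c combined knockout given tamoxifen (TMX), with 3 libraries. In it CreERT2, a Cre recombinase that acts once TMX is present, was driven by CamKIIα in principal neurons of the forebrain, and removed exons 5 and 6 of Kdm1a and exons 11 and 12 of Kdm5c. The WT group had the WT genotype and also received TMX, with 3 libraries. The labels do not say whether WT mice carried floxed alleles or the CreERT2 transgene. All mice were on a C57BL/6J background and were 2 to 3 months old when TMX was given. Polyadenylated RNA was taken from whole dissected hippocampus, so oligodendrocytes contributed to every library although the recombinase was not placed in them.

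Oligodendrocytes arise from precursor cells that carry the PDGF receptor PDGFRα and the proteoglycan NG2 and that persist in the adult brain. The transcription factors OLIG1, OLIG2 and SOX10 set the lineage, and MYRF, a membrane-released transcription factor, switches on myelin genes as a precursor matures. Mature cells wrap axons in compact membrane made of myelin basic protein, other myelin proteins and galactolipids, and adult hippocampus holds myelinated fibres as well as many precursors.

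All 27 myelinating genes had fitted values above 0 in KO hippocampus relative to WT, but most differences were small, with a median log2 fold change of 0.22. Of these, 5 rose: Ppp1r14a, Gsn, Mbp, Anln and Apod. The 12 precursor genes were mixed, with 9 above 0 and 3 below, and a median log2 fold change of 0.13; Matn4 and Susd5 rose. None of the 45 genes fell. A gene is said to rise or fall where its adjusted p was under 0.05 in edgeR's quasi-likelihood fit, after Benjamini-Hochberg adjustment over all 16861 genes tested. The 7 genes that rose were 15.6% of the 45, against 5.90% of all genes tested, and 1.05% of all genes fell. Fitted log2 fold changes, KO over WT, were above 0 for 41 of the 45 genes (91.1%), against 48.2% of all genes tested, whose median was -0.0073. Most markers of several other cell types also lay above 0. These were 12 of 12 microglia, 10 of 10 endothelial, 8 of 8 fibroblast, 11 of 12 astrocyte, 9 of 10 choroid plexus and ependyma and 6 of 8 mural markers. Their medians were 0.23, 0.16, 0.74, 0.11, 0.37 and 0.14 in that order. Among interneuron markers 3 of 10 lay above 0. Every KO library lay above every WT library for 15 of the 45 genes (33.3%), against 14.0% of all genes. The reverse held for 0 of the 45, against 11.2% of all genes. KO libraries also lay wholly above WT for 5 of 12 microglia and 4 of 12 astrocyte markers, so this separation was not particular to the 45 genes. It held for 2 of 10 choroid plexus and ependyma and 1 of 8 mural markers. For endothelial, fibroblast and interneuron markers it held for 0 of 10, 0 of 8 and 0 of 10.

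**Figure D1:**
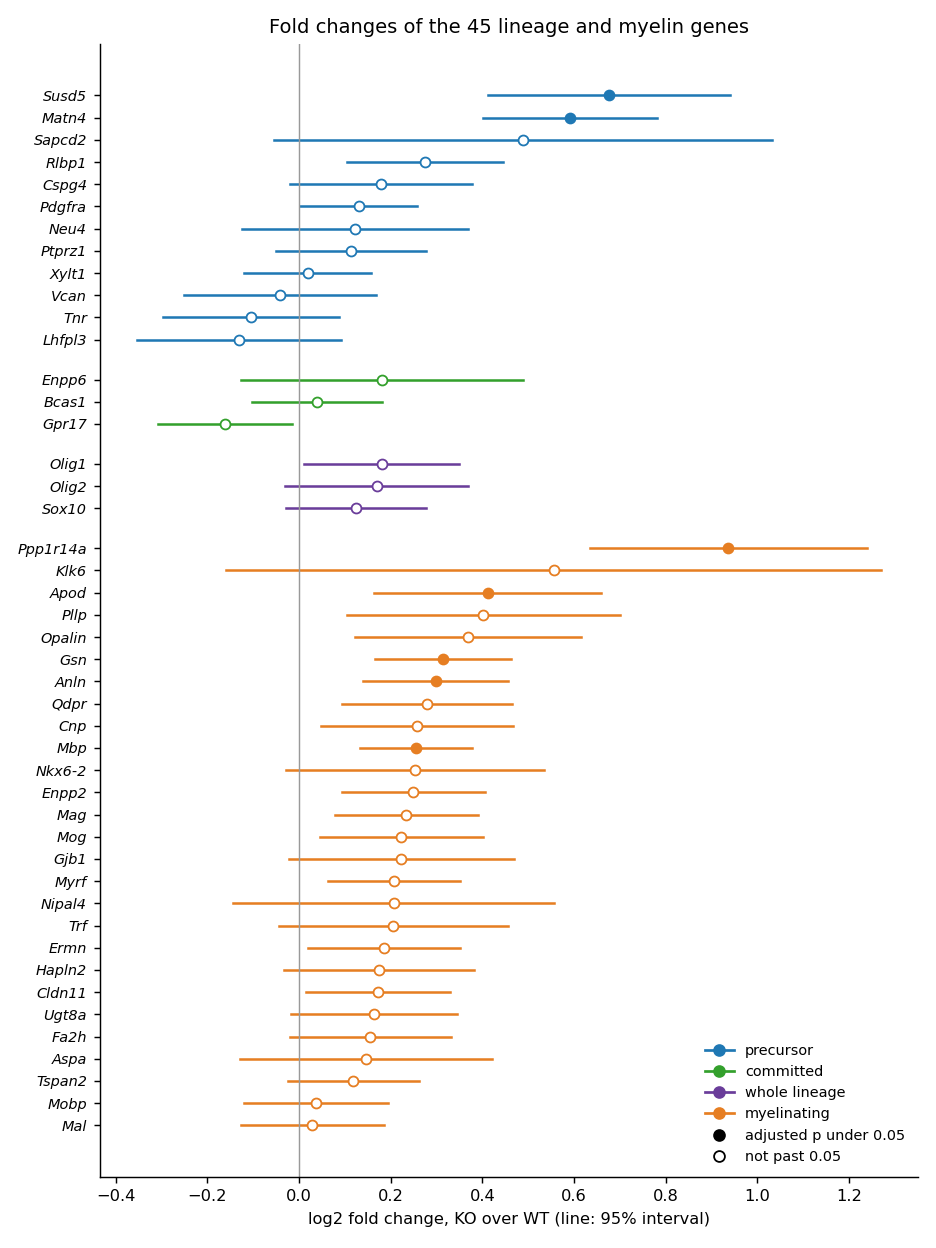
Fitted log2 fold change of each of the 45 genes, KO over WT, with its 95% interval as a line, ordered within precursor, committed, whole-lineage and myelinating genes. Filled points mark the 7 genes with an adjusted p under 0.05; all 27 myelinating genes lie right of 0, while 3 precursor genes and Gpr17 lie left of it.

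Promoter sequence is shown for 3 genes that rose, Matn4 from the precursor genes and Ppp1r14a and Gsn from the myelinating genes, and for 2 myelin genes that carry a motif of MYRF. The stretches end at or just before the annotated start of transcription and run 5′ to 3′ on the gene's strand, from RefSeq on GRCm38.p6: Matn4 at chr2:164405161-164405410, minus strand; Ppp1r14a at chr7:29289070-29289307, plus strand; Gsn at chr2:35256109-35256358, plus strand; Mag at chr7:30914923-30915172, minus strand; Cnp at chr11:100574689-100574903, plus strand. Capitals mark an E-box CAGCTG in Gsn and the MYRF motif CTGGCAC in Mag and Cnp.
Matn4: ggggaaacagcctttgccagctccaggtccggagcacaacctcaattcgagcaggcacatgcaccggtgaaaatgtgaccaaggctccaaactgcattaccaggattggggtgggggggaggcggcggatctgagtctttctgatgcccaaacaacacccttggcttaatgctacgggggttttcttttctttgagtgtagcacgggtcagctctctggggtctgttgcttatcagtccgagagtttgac
Ppp1r14a: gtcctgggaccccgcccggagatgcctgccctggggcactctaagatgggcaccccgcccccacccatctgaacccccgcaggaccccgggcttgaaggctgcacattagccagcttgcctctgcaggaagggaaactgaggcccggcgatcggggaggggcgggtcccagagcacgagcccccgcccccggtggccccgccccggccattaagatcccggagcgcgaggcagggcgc
Gsn: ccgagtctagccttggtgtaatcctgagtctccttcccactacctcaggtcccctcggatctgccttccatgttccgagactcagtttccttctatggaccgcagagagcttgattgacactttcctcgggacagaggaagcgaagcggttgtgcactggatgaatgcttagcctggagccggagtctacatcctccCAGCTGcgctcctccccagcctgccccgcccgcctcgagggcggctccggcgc
Mag: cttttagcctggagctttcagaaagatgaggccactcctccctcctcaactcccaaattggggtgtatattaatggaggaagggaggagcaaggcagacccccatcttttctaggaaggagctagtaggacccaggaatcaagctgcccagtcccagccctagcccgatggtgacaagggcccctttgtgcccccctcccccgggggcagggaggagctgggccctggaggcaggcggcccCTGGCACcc
Cnp: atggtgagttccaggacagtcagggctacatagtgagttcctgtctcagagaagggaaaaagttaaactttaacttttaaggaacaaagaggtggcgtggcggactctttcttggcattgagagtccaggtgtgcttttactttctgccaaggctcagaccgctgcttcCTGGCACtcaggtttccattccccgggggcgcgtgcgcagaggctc

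RefSeq windows of 250 bases before to 50 after the start were at hand for 35 of the 45 genes, among 27025 windows in all. Reading both strands, CTGGCAC lay in the windows of 5 of 22 myelinating genes, which were Cnp, Hapln2, Mag, Nipal4 and Opalin, and in 0 of 11 precursor windows, against 5.02% of all windows. None of the 6 rising genes with a window held it. The E-box CAGCTG lay in 7 of the 35 windows against 16.1% of all, and the SOX motif AACAAT in 7 of the 35 against 10.9% of all. CpG dinucleotides numbered a median of 18.5 in the windows of the 6 rising genes, 8 in the 29 other windows of the set and 7 in all windows. Ppp1r14a held 18 CpGs and Matn4 8 in the stretches printed. A motif match describes the letters and does not show binding.

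Total counts per library were 19411611, 19342337 and 19637352 in KO and 19700249, 19309576 and 19440291 in WT. Levels are given as CPM, counts per 1000000 reads, scaled by edgeR's TMM factors. Kdm1a fell to 38.0, 37.6 and 40.0 CPM in KO, against 75.2, 76.6 and 69.2 CPM in WT (log2 fold change -0.93, SE 0.0651, adjusted p 4.32e-07). Kdm5c had 74.3, 72.1 and 65.3 CPM in KO and 78.3, 82.8 and 77.2 CPM in WT, without overlap but not past the threshold (log2 fold change -0.17, adjusted p 0.143). Both genes lay lower in KO. Many cells of the tissue lie outside the deletion, and the counts cover whole genes, not the deleted exons alone. The part of either in these values was not tested. The hippocampal neuron genes Prox1, Wfs1 and Neurod6, named after their values were seen, were present in all libraries. Prox1 and Wfs1 averaged 103 ± 8.08 and 148 ± 16.5 CPM in KO and 108 ± 15.0 and 156 ± 18.6 CPM in WT (SD, n = 3 each). Neurod6 fell to 147 ± 6.74 CPM in KO, against 186 ± 9.58 CPM in WT (SD, n = 3 each), without overlap (log2 fold change -0.34, adjusted p 0.00332 in edgeR's fit). The labels do not tie libraries to single animals, and the p-values therefore reflect library-to-library spread, which may be technical.

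Precursor genes for receptors and signalling proteins gave 1 rise among 5. For 2 of the 5, Susd5 and Pdgfra, every KO library lay above every WT library, as it did for 14.0% of all genes tested. Susd5, which encodes a sushi-domain membrane protein (ENSMUSG00000086596, chr9:114057140-114098728 on GRCm38), had 11.1, 10.1 and 11.5 CPM in KO, against 6.52, 6.16 and 7.75 CPM in WT. All KO libraries lay clear above all WT libraries. Its mean was 10.9 ± 0.723 CPM in KO and 6.81 ± 0.834 CPM in WT (SD, n = 3 each), a log2 fold change of 0.68 (SE 0.122, adjusted p 0.00301). The percent change was 59.8, with a 95% interval of 33.2 to 91.8. Fbxl2, an F-box protein gene on the opposite strand 10949 bases away, fell to 47.3, 42.1 and 39.4 CPM in KO, against 49.0, 54.0 and 52.7 CPM in WT (log2 fold change -0.27, SE 0.0764, adjusted p 0.0475).

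Pdgfra, the receptor that defines precursors, had 61.2, 58.1 and 59.6 CPM in KO and 54.6, 55.6 and 53.2 CPM in WT. The groups did not overlap, and the 95% interval of 0.216 to 19.6% lay above 0, but the gene did not pass after adjustment over all genes (log2 fold change 0.13, SE 0.0593, unadjusted p 0.0454 and adjusted p 0.234 in edgeR's fit). Ptprz1, a receptor tyrosine phosphatase of precursors and astrocytes, had 316, 303 and 303 CPM in KO and 279, 321 and 253 CPM in WT. WT replicate 2 was the highest of all 6 libraries, so the groups overlapped (log2 fold change 0.11, SE 0.076, adjusted p 0.448). Without WT replicate 2 its adjusted p was 0.0489. Lhfpl3, a tetraspan membrane protein, was lower in KO by its fitted value, at -0.13 (adjusted p 0.525). Sapcd2, a regulator of spindle orientation, was the least abundant of the 45 genes and its interval was wide, from -3.64 to 105% (adjusted p 0.305).

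Precursor genes for matrix proteins and for the sugar chains of proteoglycans gave 1 rise among 6. Matn4 encodes matrilin-4, a protein of the extracellular matrix (ENSMUSG00000016995, chr2:164389393-164405160). It had 20.8, 20.8 and 20.2 CPM in KO, against 12.7, 14.4 and 13.9 CPM in WT. The KO libraries were nearly equal and lay far above WT. The means were 20.6 ± 0.344 CPM in KO and 13.7 ± 0.885 CPM in WT (SD, n = 3 each), and the log2 fold change was 0.59 (SE 0.0879, adjusted p 0.000612), or 50.6% (95% interval 32.1 to 71.7). Matn4 shares 149 of its 5174 exon bases with Rbpjl, a gene on the opposite strand. Rbpjl had 5.20, 4.12 and 5.73 CPM in KO and 1.68, 1.25 and 1.30 CPM in WT (log2 fold change 1.82, adjusted p 3.45e-05 in edgeR's fit). No source used here says whether counting used strand, so reads of the 2 genes cannot be told apart where they overlap, and the rise of Matn4 is uncertain to that extent.

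The other 5 matrix and glycan genes overlapped between the groups. Tnr, which encodes tenascin-R of perineuronal nets, had 221, 218 and 230 CPM in KO and 210, 283 and 225 CPM in WT. WT replicate 2 stood apart from the others, and the fitted log2 fold change was -0.11 (SE 0.0892, adjusted p 0.56). Without that library the value turned to 0.03. Vcan, encoding versican, had a log2 fold change of -0.04, and Xylt1, which starts glycosaminoglycan chains, 0.02. Cspg4, which encodes NG2, had 34.3, 33.8 and 36.5 CPM in KO and 28.5, 28.2 and 35.7 CPM in WT. Here WT replicate 3 reached the KO level, and without it the adjusted p was 0.0273, against 0.308 with all 6 libraries. Neu4, a sialidase, had 0.12 (adjusted p 0.607). Rlbp1, a retinaldehyde-binding protein found in precursors and astrocytes, had 24.8, 24.4 and 23.5 CPM in KO and 19.9, 19.4 and 20.8 CPM in WT, without overlap (log2 fold change 0.27, SE 0.079, adjusted p 0.0537). It passed without WT replicate 3, at an adjusted p of 0.0432.

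None of the 3 genes of committed cells passed the test. Gpr17, a receptor that restrains maturation, had 68.2, 67.9 and 69.6 CPM in KO and 69.4, 77.9 and 82.8 CPM in WT. The groups met at KO replicate 3 and WT replicate 1, and the log2 fold change of -0.16 (SE 0.068, adjusted p 0.195) was the lowest of the 45. Bcas1, expressed as cells begin to myelinate, had 127, 139 and 148 CPM in KO and 138, 129 and 136 CPM in WT. The groups were interleaved, at a log2 fold change of 0.04 (adjusted p 0.798) that turned to -0.0089 without KO replicate 3. Enpp6, a choline phosphodiesterase of newly forming oligodendrocytes, had 0.18 (adjusted p 0.528).

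The transcription factors of the lineage lay above 0 by small amounts and none passed. Olig1 had 91.1, 104 and 110 CPM in KO and 85.9, 85.6 and 97.8 CPM in WT. KO replicate 1 lay within the WT range (log2 fold change 0.18, SE 0.0783, adjusted p 0.212). Sox10 had 49.0, 55.9 and 57.8 CPM in KO and 50.9, 50.0 and 48.5 CPM in WT, again with KO replicate 1 within the WT range (log2 fold change 0.12, SE 0.0713, adjusted p 0.363). Olig2 had 0.17 (adjusted p 0.338). Myrf had 93.3, 103 and 102 CPM in KO and 82.8, 92.6 and 82.8 CPM in WT. The groups came close without overlapping (log2 fold change 0.21, SE 0.0667, adjusted p 0.0867), and without WT replicate 2 the adjusted p was 0.0296. Nkx6-2, a homeodomain factor of maturing cells, had 0.25 (adjusted p 0.306). Over all genes the median log2 fold change climbed with GC content, from -0.058 in the lowest of 5 bins to 0.0508 in the highest. With a correction for GC content the values were 0.107 for Olig1, 0.115 for Olig2, 0.042 for Sox10, 0.157 for Myrf and 0.144 for Nkx6-2. The median of all 45 genes was 0.18 with and without it.

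Compact myelin proteins gave 1 rise among 4. Mbp, myelin basic protein, which holds the cytoplasmic faces of the myelin membrane together (ENSMUSG00000041607, chr18:82475146-82585637), had 2659, 2867 and 2940 CPM in KO, against 2523, 2204 and 2367 CPM in WT. Every KO library lay above every WT library. The log2 fold change was 0.25 (SE 0.0566, adjusted p 0.0126), a percent change of 19.3 with an interval of 9.67 to 29.8. The adjusted p was 0.0564 without KO replicate 2 and 0.107 without KO replicate 3.

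Mobp, another abundant structural protein of compact myelin, had 832, 929 and 958 CPM in KO and 885, 793 and 970 CPM in WT. The groups were interleaved, and the log2 fold change of 0.04 (SE 0.0729, adjusted p 0.829) turned to -0.0015 without KO replicate 3 and to -0.03 without WT replicate 2. Its 95% interval, -7.96 to 14.4%, and that of Mbp share a stretch, and the difference between the genes was not tested. Mal, a proteolipid of myelin rafts, had 2.02% (interval -8.41 to 13.6). Pllp, plasmolipin, had 5.56, 6.96 and 6.64 CPM in KO and 4.59, 5.01 and 4.89 CPM in WT, without overlap (log2 fold change 0.40, SE 0.138, adjusted p 0.11). Pllp shares 1128 exon bases with Gm45767, a gene on the opposite strand with a log2 fold change of 0.33. As for Matn4, reads of the 2 genes cannot be told apart where they overlap. Levels per length of transcript, averaged over the 6 libraries, were 306 RPKM for Mbp, 131 for Mobp and 94.7 for Mal (RPKM being reads per kilobase of exon, at the same depth scale as CPM). The least abundant of the 45 were Klk6 at 0.746 and Sapcd2 at 0.587 RPKM.

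Of the 8 genes for adhesion, junction and surface proteins of myelin, 0 passed and all 8 lay above 0, with a median log2 fold change of 0.20. Mag, the adhesion molecule of the innermost myelin layer, had 199, 211 and 221 CPM in KO and 195, 161 and 180 CPM in WT. The groups did not overlap, although KO replicate 1 and WT replicate 1 were close (log2 fold change 0.23, SE 0.0725, adjusted p 0.0753). Opalin, a membrane glycoprotein of the paranodal loops, had 21.1, 25.9 and 23.5 CPM in KO and 21.5, 16.0 and 17.0 CPM in WT. KO replicate 1 lay just under WT replicate 1 (log2 fold change 0.37, SE 0.115, adjusted p 0.076). Without WT replicate 1 the adjusted p was 0.0355 for Mag and 0.0176 for Opalin. Mog, a surface glycoprotein of the outermost layer, had 56.7, 61.9 and 61.1 CPM in KO and 55.9, 44.3 and 53.8 CPM in WT (adjusted p 0.139). Cldn11 of the myelin tight junction had 0.17, Gjb1, which encodes connexin 32, 0.22, Ermn, a cytoskeletal protein, 0.18, Hapln2, a link protein of nodes of Ranvier, 0.17, and Tspan2, a tetraspanin, 0.12 as log2 fold changes.

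Of the 7 genes for enzymes, 0 passed and the median log2 fold change was 0.25. Enpp2 encodes autotaxin, which makes lysophosphatidic acid, and had 218, 194 and 219 CPM in KO and 194, 169 and 168 CPM in WT. KO replicate 2 and WT replicate 1 were level (log2 fold change 0.25, SE 0.0724, adjusted p 0.0567). It passed without KO replicate 2 (adjusted p 0.0441) and without WT replicate 1 (0.0218). Qdpr, which recycles tetrahydrobiopterin, had 138, 151 and 159 CPM in KO and 135, 106 and 129 CPM in WT. The groups did not overlap (log2 fold change 0.28, SE 0.0863, adjusted p 0.0738), and without WT replicate 1 the adjusted p was 0.0468. Cnp, a phosphodiesterase that keeps cytoplasmic channels open in myelin, had 290, 337 and 329 CPM in KO and 291, 218 and 292 CPM in WT. Its groups overlapped through KO replicate 1 (log2 fold change 0.26, SE 0.0975, adjusted p 0.149). Ugt8a and Fa2h, which make galactolipids and hydroxylate their fatty acids, both had 0.16, and Aspa, which cleaves N-acetylaspartate, 0.15. Klk6, a secreted protease, had a wide interval of -10.4 to 141% at its low level.

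Carriers, cytoskeletal and signalling proteins of myelinating cells held 4 of the 5 myelinating rises. Ppp1r14a encodes an inhibitor of myosin phosphatase (ENSMUSG00000037166, chr7:29289308-29293801). It had 13.0, 16.8 and 15.1 CPM in KO, against 8.41, 6.16 and 8.90 CPM in WT. The lowest KO library stood well above the highest WT library. Means were 15.0 ± 1.93 CPM in KO and 7.82 ± 1.46 CPM in WT (SD, n = 3 each), and the log2 fold change of 0.94 (SE 0.14, adjusted p 0.000659) was the largest of the 45, or 91.4% (interval 55.2 to 136). Spint2, a protease inhibitor gene on the opposite strand 7396 bases away, rose as well, with 28.4, 28.2 and 24.9 CPM in KO and 12.2, 9.66 and 10.9 CPM in WT (log2 fold change 1.31, SE 0.102, adjusted p 1.31e-06). Of the 8 tested genes within 20 kb of a rising gene of the set, Spint2 and Rbpjl rose, Fbxl2 fell and the other 5 did not pass.

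Gsn encodes gelsolin, which severs actin filaments, and is also made by fibroblasts (ENSMUSG00000026879, chr2:35256380-35307892). It had 58.1, 60.5 and 67.9 CPM in KO, against 51.1, 49.6 and 49.4 CPM in WT. The WT libraries were tightly grouped and all KO libraries lay above them (log2 fold change 0.31, SE 0.0689, adjusted p 0.0118). Without KO replicate 3 the adjusted p was 0.0996. Anln, the actin-binding scaffold anillin (ENSMUSG00000036777, chr9:22332012-22389188), had 65.6, 61.3 and 67.8 CPM in KO, against 54.8, 56.2 and 47.4 CPM in WT. The groups did not overlap (log2 fold change 0.30, SE 0.0737, adjusted p 0.0244), but the adjusted p was 0.087 without KO replicate 1 and 0.151 without KO replicate 3.

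Apod encodes apolipoprotein D, a lipid-carrying lipocalin also made outside the lineage (ENSMUSG00000022548, chr16:31296192-31314808). It had 167, 149 and 198 CPM in KO, against 131, 106 and 150 CPM in WT. KO replicate 2 was level with WT replicate 3, so this rising gene overlapped (log2 fold change 0.41, SE 0.115, adjusted p 0.0475). Its adjusted p was 0.0945 without KO replicate 1, 0.239 without KO replicate 3, 0.112 without WT replicate 1, 0.138 without WT replicate 2 and 0.249 by DESeq2. Trf, transferrin, had 0.21 (adjusted p 0.351), and Nipal4, a magnesium transporter, 0.21 (adjusted p 0.527).

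**Figure D2:**
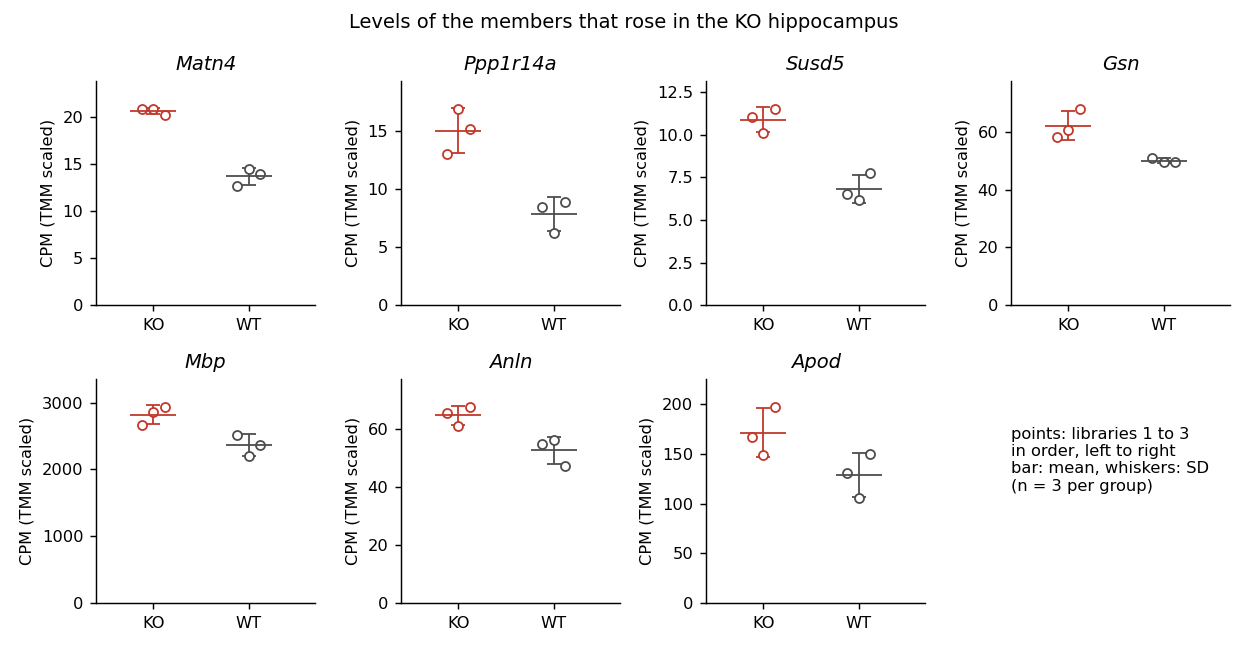
Level of each of the 7 genes that rose, in CPM, in the 3 KO and the 3 WT libraries, each panel with its own axis from 0. Points are libraries, the bar is the mean and whiskers are the SD; only Apod has a KO library (149 CPM) at the height of a WT library (150 CPM).

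Calls differed in how far they depended on the processing and on single libraries. Matn4, Susd5 and Ppp1r14a passed under all 14 other settings tried, Mbp, Anln, Gsn and Apod lost the call under 1 or more, 11 genes passed under some settings only, and 27 passed under none. These settings were other scalings, DESeq2 and limma-voom, other filters on low counts, a replicate block, a correction for GC content and leaving out each library.

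**Figure D3:**
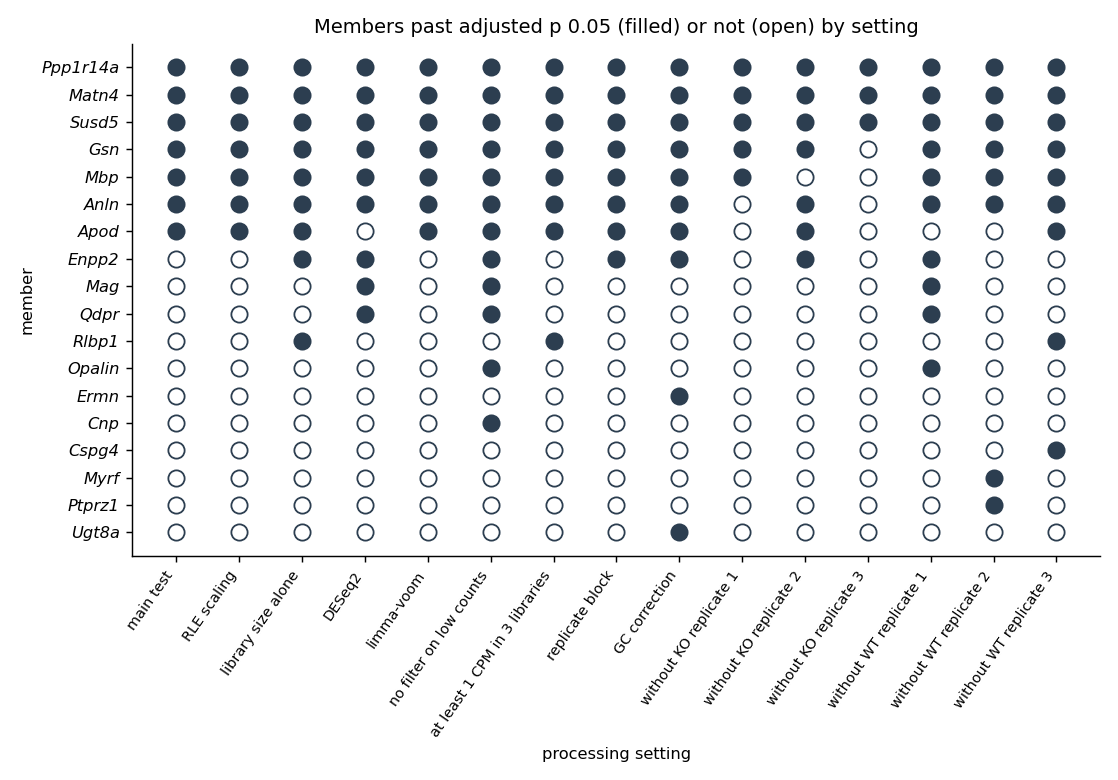
Whether each of 18 genes passed an adjusted p of 0.05 (filled) or not (open) under the main test and 14 other settings along the horizontal axis. The upper 3 genes are filled throughout, and without KO replicate 3 they are the only ones filled.

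Set against each other, the precursor and the myelinating genes differed in how libraries ranked and in their sums, with overlap. The summed level of the 27 myelinating genes was 5551, 5961 and 6179 CPM in KO and 5382, 4712 and 5237 CPM in WT. No KO library reached down to the WT range, and the ratio of means was 1.15. Mbp alone made up 47.9, 48.1 and 47.6% of that sum in KO and 46.9, 46.8 and 45.2% in WT. The summed level of the 12 precursor genes was 840, 811 and 821 CPM in KO and 751, 881 and 747 CPM in WT, a ratio of 1.04. WT replicate 2 was the highest of all 6 libraries for precursor genes and the lowest for myelinating genes, and without it the ratios were 1.10 for precursor and 1.11 for myelinating genes.

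Precursor sum as a percentage of the myelinating sum was therefore 15.1, 13.6 and 13.3% in KO and 13.9, 18.7 and 14.3% in WT, with KO replicate 1 inside the WT range. Several precursor genes are also made by other hippocampal cells, such as astrocytes, pericytes, fibroblasts or neurons. Over the 4 precursor genes with no such source listed, Lhfpl3, Neu4, Matn4 and Susd5, the median log2 fold change was 0.36 and the ratio of sums 1.20. Over the 18 myelinating genes left by the same removal the median was 0.21 and the ratio 1.14. Ppp1r14a was among these 18, and whether other cells make it was not tested. The order of the 2 stages was then the reverse of that over all their genes. The 4 precursor values were -0.13 for Lhfpl3, 0.12 for Neu4, 0.59 for Matn4 and 0.68 for Susd5. The 2 highest belong to the only precursor genes that rose. Reads of Matn4 and Rbpjl cannot be told apart over the 149 exon bases they share, and the rise of Matn4 is uncertain to that extent. With so few genes the order of the stages is not settled. Committed genes summed to 205, 216 and 226 CPM in KO and 217, 215 and 225 CPM in WT, a ratio of 0.984. Whole-lineage factors summed to 166, 188 and 197 CPM in KO and 158, 162 and 172 CPM in WT, a ratio of 1.12. In bulk tissue a change in the number of cells of a type and a change in RNA per cell cannot be told apart.

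Replicate 1 of the KO group was the lowest KO library for 21 of 27 myelinating genes and for 0 of 12 precursor genes, of which it was the highest for 7. In WT, replicate 2 was the lowest for 14 of the 27 myelinating genes and the highest for 8 of the 12 precursor genes.

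**Figure D4:**
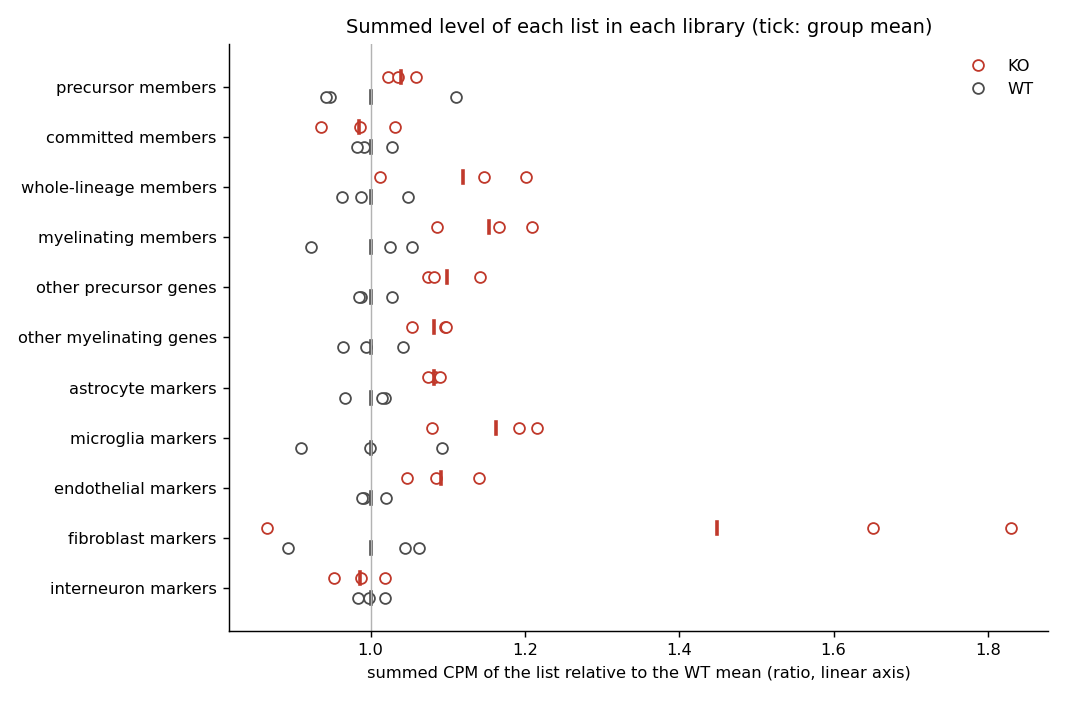
Summed CPM of each gene list in each library, divided by the WT mean of that list, with KO points drawn above WT points and ticks at group means. Myelinating genes lie at higher values in all KO libraries (ratio of means 1.15), precursor genes overlap (1.04), and fibroblast markers are spread by KO replicates 1 and 3 (1.45).

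Further genes of the lineage, not among the 45, were read in the same fit. These lists were chosen with earlier results of these data known, so they are no independent check. Of 28 other myelinating genes, 5 rose (17.9%, against 5.90% of all genes tested) and 0 fell (against 1.05%), with a median log2 fold change of 0.23. Car2, carbonic anhydrase 2, had 235, 250 and 254 CPM in KO, against 203, 185 and 187 CPM in WT (log2 fold change 0.36, SE 0.0611), and passed under all 14 settings. S1pr5, a sphingosine phosphate receptor, rose by 0.40 on the log2 scale and lost the call without KO replicate 3 (adjusted p 0.0587). Tmem63a, a mechanically gated channel, Gal3st1, which makes sulfatide, and Prr5l also rose, each in 7 or fewer of the 14 settings.

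Of 16 other precursor genes, C1ql1 rose and Lnx1 fell, with a median of 0.09. C1ql1, a secreted C1q-like protein, had 15.1, 17.8 and 17.6 CPM in KO, against 5.35, 6.22 and 7.29 CPM in WT (log2 fold change 1.42, SE 0.125), and passed under all 14 settings. Its distance was larger than that of any of the 45 genes, and C1ql1 is also made by neurons. Lnx1, a ubiquitin ligase, had 13.3, 13.4 and 12.0 CPM in KO and 17.1, 15.6 and 16.3 CPM in WT (log2 fold change -0.34, adjusted p 0.0422; 6 of 14 settings). Of 12 other genes of committed cells, Kif19a, a kinesin, rose (log2 fold change 0.63, adjusted p 0.0311, 9 of 14 settings), and the median was 0.08. The share that rose was 6.25% of the 16 and 8.33% of the 12, near the 5.90% of all genes tested.

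Most lipid supply genes did not pass the test. Of 22 cholesterol synthesis genes 0 rose and 0 fell by edgeR's test, with a median log2 fold change of -0.09; Hsd17b7 (adjusted p 0.0935) and Msmo1 (adjusted p 0.109) came nearest, both lower in KO. Of 15 sphingolipid genes, Cers2, the ceramide synthase of very long chain lipids, rose, with 81.6, 89.0 and 87.7 CPM in KO, against 71.5, 74.5 and 69.8 CPM in WT (log2 fold change 0.26, adjusted p 0.0161; 11 of 14 settings), and the median was -0.02. Of 25 tested genes for axonal ligands and growth factor signals, Lif, a cytokine, and Fgfr2 rose, with log2 fold changes of 0.76 and 0.30, in 7 and 4 of 14 settings. Cntnap1, the axonal protein of the paranodal junction, fell to 283, 300 and 281 CPM in KO, against 332, 341 and 334 CPM in WT (log2 fold change -0.22, adjusted p 0.0228; 11 of 14 settings). The median of those 25 genes was 0.06. The share that rose was 6.67% of the sphingolipid genes and 8.0% of these 25, near the 5.90% of all genes tested.

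Few markers of other cells passed the test, although the sums of several lists averaged higher in KO. All 12 microglia markers lay above 0, 0 passed, and their median log2 fold change was 0.23; their sum was 508 to 572 CPM in KO and 428 to 514 CPM in WT. Of 12 astrocyte markers, Gfap rose, with 429, 446 and 474 CPM in KO, against 326, 328 and 364 CPM in WT (log2 fold change 0.41), and the sum was 6407 to 6500 CPM in KO and 5767 to 6073 CPM in WT. Endothelial markers summed to 338 to 368 CPM in KO and 319 to 329 CPM in WT, with 0 of 10 passing. Pdgfrb rose among 8 mural markers, which summed to 246 to 315 CPM in KO and 245 to 259 CPM in WT. Interneuron markers had a ratio of sums of 0.986, with 0 of 10 passing. Of 5 tested proliferation genes Birc5 rose, while Mki67 had a log2 fold change of 0.01, and of 8 markers of neighbouring regions Prkcd rose. The part of these cells in the myelin values was not tested.

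Markers of choroid plexus and of meningeal fibroblasts set KO replicates 1 and 3 apart. The 11 choroid plexus and ependyma markers summed to 144, 82.0 and 143 CPM in KO and 66.8, 46.8 and 54.4 CPM in WT. Among the 10 tested Kl rose, or 10.0%, against 5.90% of all genes tested. Kl passed under all 14 settings, also without KO replicate 1 and without KO replicate 3, with log2 fold changes of 1.37 to 1.47. Ttr, transthyretin of the choroid plexus, had 58.9, 1.60 and 55.9 CPM in KO and 19.1, 5.96 and 7.23 CPM in WT. The 8 fibroblast markers summed to 205, 96.9 and 185 CPM in KO and 117, 100 and 119 CPM in WT, and 0 passed. In KO replicate 2, Ttr and the fibroblast sum lay below every WT library. The choroid plexus and ependyma sum, at 82.0 CPM, still lay above every WT library, so Ttr does not stand for that whole list. Kl was the only gene of that list that rose, and its part in the sum was not tested. In KO replicate 2, Apod (149 CPM) and Enpp2 (194 CPM) lay within the WT range, whereas Mbp, Gsn, Anln, Ppp1r14a, Matn4 and Susd5 lay above every WT library. With KO replicate 2 alone set against the 3 WT libraries, assuming that it varies as they do, Matn4 and Ppp1r14a passed (adjusted p 0.0456 and 0.00423). The other 5 did not, with log2 fold changes of 0.57 for Susd5, 0.28 for Mbp, 0.27 for Gsn, 0.21 for Anln and 0.21 for Apod.

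**Figure D5:**
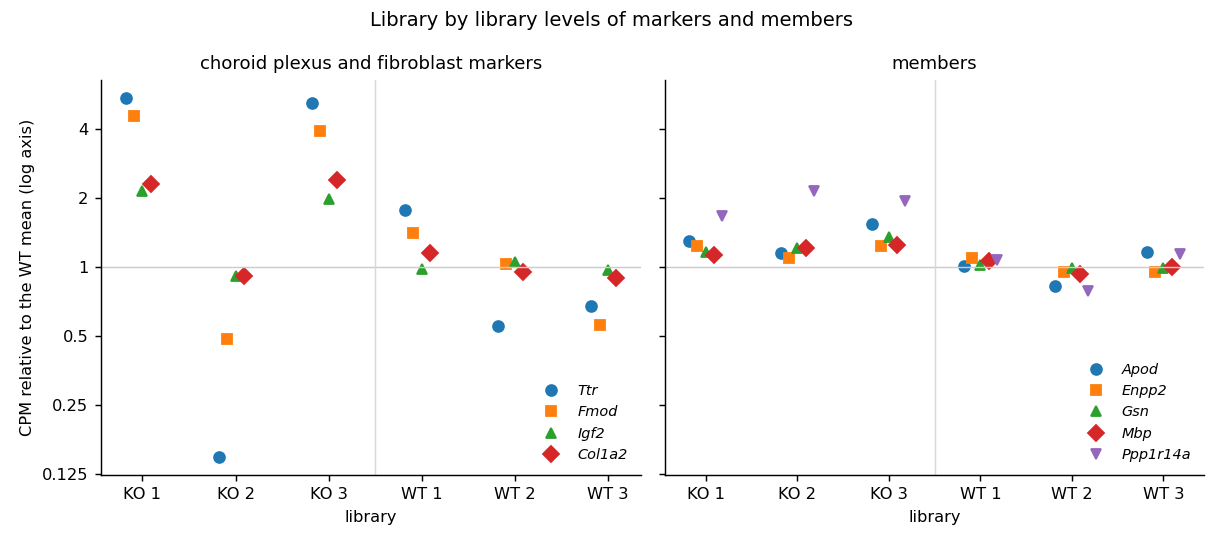
CPM of choroid plexus and fibroblast markers (left) and of 5 genes of the set (right) in each library, divided by the WT mean, on a log axis. Ttr and Fmod are high in KO replicates 1 and 3 and low in KO replicate 2, while Ppp1r14a, Mbp and Gsn are above the WT mean in all 3 KO libraries.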

How the data were processed

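Hippocampal polyadenylated RNA was sequenced in 3 KO and 3 WT libraries. The deposited table holds raw read counts per Ensembl gene; per the submitters' processing notes the authors used cutadapt 1.18, HISAT2 and HTSeq 0.11.1 with GRCm38 (mm10). The version of HISAT2, the annotation and the use of strand were not given in the sources used here. Symbols came from GENCODE M21; 360 of 48795 identifiers, with 0.0512% of counts, did not match. Genes kept by filterByExpr (minimum count 10) were scaled with TMM and tested with edgeR 4.0.16's quasi-likelihood test (R 4.3.3) on the 6 libraries without covariates, with Benjamini-Hochberg adjustment over 16861 genes. The test was tried on simulated data first. CPM, and RPKM from exon lengths, serve description. DESeq2 1.42.0, limma-voom (limma 3.58.1), other scalings and filters, a replicate block and leaving out each library were alternatives; the GC correction and KO replicate 2 alone were chosen after seeing the data. The 45 genes and the other lists were chosen with earlier results of these data known. Per-library values were to be given for genes of the set past the threshold, for the 2 of each stage with the highest level per length, and for those passing in at least 2 alternatives only; in other lists up to 4 passing genes, or the 2 with the smallest p, were named. Pdgfra, Cspg4, Myrf, Mog, Cnp, Pllp, Prr5l, Ttr, Mki67, Spint2, Fbxl2 and Rbpjl were given beyond this, after their values were seen. RefSeq windows were matched by symbol; no sequence of Mbp or Gpr17 is shown.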

Additional observations from a re-analysis of the deposited data

How the results depend on the processing

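With 3 libraries a group, small differences lie within the spread between libraries, and no larger set is at hand. Of 266 values of the 19 genes given per library by rule under 14 alternatives, 233 kept direction and call, 19 gained the call, 10 lost it and 4 turned sign: Tnr without WT replicate 2 (0.031), Bcas1 without KO replicate 3 (-0.0089), Mobp without KO replicate 3 (-0.0015) and Mobp without WT replicate 2 (-0.035), all log2 fold changes that did not pass. Over all omissions of 1 library these ran from -0.19 to 0.031 for Tnr and from -0.0089 to 0.094 for Bcas1. The cause was not tested.

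The number of the 45 genes that rose, 7, became 12 with no filter on low counts, 3 at an adjusted p of 0.01, 13 at 0.1, and 2 with KO replicate 2 alone, where fewer samples were fitted; leaving out 1 library at a time gave 3 (without KO replicate 3) to 10 (without WT replicate 1). None fell under any setting. Over all genes, 995 rose and 177 fell. At an adjusted p of 0.01 these were 614 and 47, and with KO replicate 2 alone 424 and 16. At 0.1, 395 fell, with no filter 279, and with the GC correction 267. Leaving out 1 library gave 676 to 1101 rises and 48 (without KO replicate 3) to 323 (without WT replicate 3) falls, with 67 without KO replicate 2 and 102 without KO replicate 1.

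Without genes listed as also made by other hippocampal cells, 4 precursor genes were left. Their median was 0.36 against 0.13 and their ratio of sums 1.20 against 1.04. The myelinating values, over 18 genes, were 0.21 against 0.22 and 1.14 against 1.15. Leaving out 1 library gave a precursor median of 0.11 to 0.18 and a myelinating median of 0.19 to 0.30. Ratios of sums have no value under DESeq2, limma-voom, the filters, the block or the GC correction. Correlations of deviations between same-numbered KO and WT libraries were 0.00924, -0.0484 and -0.029. Those between unlike-numbered libraries ran from -0.173 to 0.19. No sign of pairing by number was seen, but 3 libraries a group cannot exclude it. With the replicate block 8 of the 45 genes rose, adding Enpp2, and 960 rose and 149 fell over all genes.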
